A study of Homo sapiens with 4 samples.

Results

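The genes of axon guidance signalling NTNG1, NTN4, SEMA3A, SEMA3C, SEMA7A, NRP1, NRP2, PLXNA1, SLIT2 and ROBO1, 10 of the 27940 gene symbols measured, were followed in U87 cells, an established human glioma line, with and without a short hairpin RNA against PTPRN. The list was drawn up by gene name and selected on the FPKM of NTNG1, which had been seen to be higher in the hairpin libraries. The difference of NTNG1, and with it every difference of the 10 genes in the same contrast, is therefore given as a description and carries no p-value. The series holds 4 RNA-seq libraries. The control group, shNC, comprises 2 libraries from cells infected with lentivirus of the empty FUGW-H1 vector, although the series' design text calls the control H1-RFP (WT). The group shPTPRN3 comprises 2 libraries from cells infected with lentivirus that carries the hairpin. All cells grew in the same serum-containing medium, so both groups share the cell line, the culture and the lentiviral infection. The replicates are called biological in the design text, and whether they came from separate infections or cultures is not given in the sources used here.

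Guidance cues were first studied in growing axons, which they attract or repel, and many act on migrating cells, vessels and tumours as well. Netrins are laminin-related proteins, most of them secreted, whereas netrin-G1, the product of NTNG1, is held on the membrane by a lipid anchor and binds the synaptic adhesion molecule NGL-1 (LRRC4C) instead of the classical netrin receptors. Class 3 semaphorins are secreted and bind neuropilins, which pair with A-type plexins to pass the signal inward and also bind forms of VEGF. Slit proteins are secreted ligands of the Robo receptors.

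The hairpin's target, shown because it defines the 2 groups, is given here as in the labels, 5′ to 3′:
PTPRN hairpin target: ggaagtctgtattcaggatgg
All 21 bases occur in an annotated PTPRN transcript (GENCODE 29). The longest run shared with any transcript of the 10 guidance genes was 10 bases, in SEMA3A and ROBO1, and it was 9 bases in NTNG1. Whether such runs matter for these genes was not tested. Both shPTPRN3 libraries carry the same hairpin, so its effects outside PTPRN cannot be told apart from those of less PTPRN. PTPRN, a membrane protein of secretory vesicles in the receptor tyrosine phosphatase family, stood at 28.6 and 19.3 FPKM in shNC and at 5.22 and 3.42 FPKM in shPTPRN3. FPKM counts sequenced fragments relative to transcript length and to the mapped fragments of the library. Both hairpin libraries lay below both controls for the targeted gene.

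Among the 10 genes, 3 had group means that differed by more than 3-fold, all higher in shPTPRN3: NTNG1, NTN4 and SLIT2. The 250 bases directly upstream of the start of each of these loci are shown because these members had the highest ratios between groups (RefSeq, GRCh38.p14, 5′ to 3′ on the gene's strand). Capitals mark the GC box, GGGCGG or its reverse complement.
NTNG1 (plus strand, chr1:107139838-107140087): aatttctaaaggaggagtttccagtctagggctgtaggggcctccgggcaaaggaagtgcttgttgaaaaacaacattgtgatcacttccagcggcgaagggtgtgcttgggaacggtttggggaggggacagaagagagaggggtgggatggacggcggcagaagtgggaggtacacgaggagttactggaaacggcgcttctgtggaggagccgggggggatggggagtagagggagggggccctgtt
NTN4 (minus strand, chr12:95791156-95791405): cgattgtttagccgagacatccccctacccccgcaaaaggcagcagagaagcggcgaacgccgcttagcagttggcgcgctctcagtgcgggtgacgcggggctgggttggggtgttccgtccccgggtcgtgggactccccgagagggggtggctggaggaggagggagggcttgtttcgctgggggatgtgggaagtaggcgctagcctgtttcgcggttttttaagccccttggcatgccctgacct
SLIT2 (plus strand, chr4:20251655-20251904): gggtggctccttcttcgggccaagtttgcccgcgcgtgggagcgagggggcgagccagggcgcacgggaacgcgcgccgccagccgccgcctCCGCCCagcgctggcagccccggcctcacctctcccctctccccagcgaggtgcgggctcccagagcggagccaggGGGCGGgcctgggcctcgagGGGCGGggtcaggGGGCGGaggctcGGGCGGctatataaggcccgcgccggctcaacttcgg
The SLIT2 window held 5 GC boxes and 30 CpG dinucleotides at 77.2% G+C, the NTN4 window 20 CpG at 64.4% and the NTNG1 window 10 CpG at 58.0%, with no GC box in the latter pair. Other annotated starts differed: a window of NTNG1 that ends at 107141334 held 4 GC boxes and 35 CpG, and a second window of NTN4 held 4 GC boxes and 36 CpG. The median of 35116 RefSeq windows of that length was 11 CpG at 58.0% G+C. The search covered both strands for 5 motifs, none of which contains another: the GC box (GGGCGG), the CCAAT box (CCAAT), the TATA box (TATAAA), the AP-1 site (TGANTCA) and the E-box (CACGTG). These were present in 42.6%, 32.0%, 10.7%, 6.57% and 6.34% of all windows. Promoter entries were found for 8 of the 10 genes, with 14 windows. Those without an entry were SEMA3A and NRP1. Of the 14 windows, 9 held a GC box, 2 held a CCAAT box and 0 held the exact letters of any of the remaining motifs. Variants of these letters were not searched for, so the 0 does not speak to other forms of the TATA box. A match is a string of letters and says nothing of binding in these cells.

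The libraries differed in depth and in how they represented long transcripts. The tables hold no fragment counts; relative depth, estimated over 4660 genes from how wide their Cufflinks intervals were, was 0.687 for shNC replicate 2, 1.56 for shPTPRN3 replicate 1 and 0.695 for shPTPRN3 replicate 2, against shNC replicate 1. Of the labelled cell type, 6 of 7 glioma and mesenchymal markers reached 1 FPKM in every library, among them VIM and CD44, the exception being NES (2.44 and 3.91 FPKM in shNC, 1.37 and 0.917 in shPTPRN3). SPARC, a matrix protein gene of the same list, stood at 39.2 and 33.5 FPKM in shNC and 241 and 160 in shPTPRN3. Of 4 astrocyte markers GFAP and AQP4 were listed at 0 in every library and ALDH1L1 was at 0.0931 FPKM or less, while SLC1A3, a glutamate transporter gene, stood at 7.03 and 12.3 FPKM in the controls against 5.79 and 4.67 with the hairpin. The part of these markers in the results was not tested. Markers of other cell types were low for oligodendrocytes (summed 0.279 to 0.986 FPKM over 4 genes) and endothelial cells (0.312 to 0.884 over 3). Of the 4 leukocyte and microglia markers, CD68 carried nearly all of a summed 234 to 457 FPKM, with PTPRC at 0.200 or less. The 5 neuronal markers summed to 14.4 and 11.5 FPKM in shNC and 40.0 and 13.1 in shPTPRN3. Fibroblast markers summed to 78.0 and 89.6 FPKM in shNC and 377 and 363 in shPTPRN3, most of it COL1A2, with DCN at 0.841 or less and PDGFRA at 0.0963 or less; their part in the results below was not tested. In bulk RNA, fewer cells that express a gene and less of its RNA per cell cannot be told apart.

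**Figure D1:**
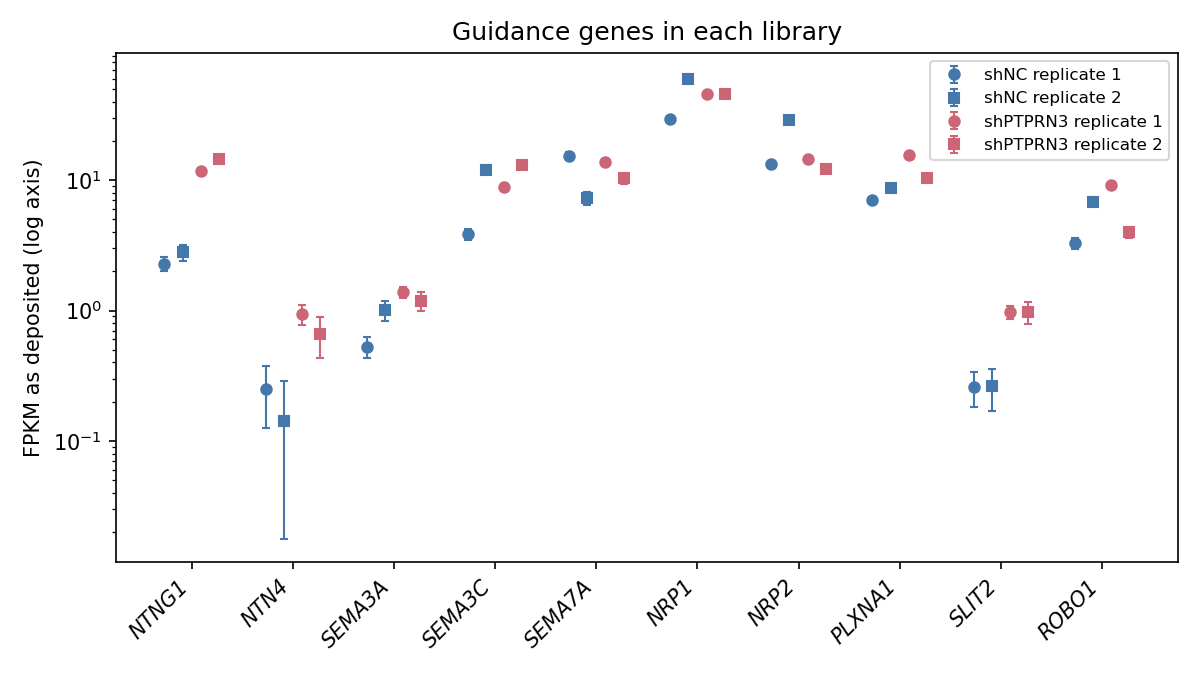
Deposited FPKM (log axis) of the 10 guidance genes in each of the 4 libraries; circles and squares are replicates 1 and 2, blue is shNC and red is shPTPRN3, and bars are the Cufflinks confidence intervals of each library. NTNG1, NTN4 and SLIT2 stand higher in both shPTPRN3 libraries than in both shNC libraries, while the symbols of NRP1, NRP2, SEMA3C, SEMA7A and ROBO1 interleave.

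Both netrin-related genes of the 10 stood higher in the hairpin libraries. NTNG1 (chromosome 1, 107140088 to 107484923, hg38) stood at 2.28 and 2.80 FPKM in shNC and at 11.7 and 14.6 FPKM in shPTPRN3. Both hairpin libraries lay above both controls, and the deposited intervals of the groups lay apart (1.99 to 2.56 and 2.42 to 3.20 against 11.2 to 12.4 and 13.6 to 15.6 FPKM). After scaling of the libraries by a median ratio over genes, the means were 2.53 ± 0.483 and 13.3 ± 3.07 FPKM (SD, n = 2), a ratio of 5.25. The ratio was 5.08 between the replicate 1 libraries and 5.38 between the replicate 2 libraries. On the scale of log2(scaled FPKM + 1) used for the fit over all genes, the difference was 2.01 with an SE of 0.33. Of the 11392 genes tested, 37 (0.325%) had a difference as large or larger in that direction. The list was selected on this rise of NTNG1, so that share is no p-value and nothing is read from it. No other gene of the tables overlapped the NTNG1 locus. NTN4 (chromosome 12, 95657807 to 95791155), a secreted netrin found in basement membranes, was barely detected in the controls, with 0.251 and 0.142 FPKM, and stood at 0.941 and 0.659 FPKM in shPTPRN3. Its groups did not overlap, but the interval of shNC replicate 2 ran from 0.0178 to 0.288 FPKM, a width that corresponds to about 4.4 fragments if the interval is read as 2 standard deviations of a count. The ratio of scaled means was 4.11 (0.194 ± 0.0681 against 0.797 ± 0.138 FPKM, SD, n = 2). The log2 difference of 0.59 (SE 0.28) understates that ratio, because the added 1 is larger than the values themselves. The ratio of NTNG1 to NTN4 within a library was 9.05 and 19.7 in shNC and 12.5 and 22.1 in shPTPRN3, so that the pair did not keep a fixed ratio between replicates. The pseudogene PGAM1P5, which overlaps the NTN4 locus on the other strand, was listed at 0 in both controls and at 0.0478 and 0.0306 FPKM in shPTPRN3; the strand setting of the counting is unknown.

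Among the semaphorins, the secreted SEMA3A, the founding repellent of its class, was higher in shPTPRN3 without overlap, but from low levels and with a wide control pair. SEMA3A (chromosome 7, 83955777 to 84194789) stood at 0.527 and 1.01 FPKM in shNC and at 1.38 and 1.19 FPKM in shPTPRN3. The deposited intervals of the groups did overlap, with 0.831 to 1.17 FPKM in shNC replicate 2 and 0.999 to 1.38 in shPTPRN3 replicate 2. The log2 difference was 0.39 (SE 0.30), smaller without shNC replicate 1 at 0.17 and larger without shNC replicate 2 at 0.60. SEMA3C (chromosome 7, 80742536 to 80922389), a secreted semaphorin best known from heart development and described in glioma stem cells, was higher than SEMA3A in every library on this per-length scale. It stood at 3.83 and 12.1 FPKM in shNC and at 8.83 and 13.1 FPKM in shPTPRN3, so that the groups overlapped and the controls differed more from each other than the group means did. The log2 difference was 0.58 (SE 0.53), and it was -0.18 without shNC replicate 1 and 1.33 without shNC replicate 2. SEMA7A (chromosome 15, 74409284 to 74433958), a lipid-anchored semaphorin that signals through integrins and plexin C1, had 15.4 and 7.26 FPKM in shNC and 13.8 and 10.4 FPKM in shPTPRN3. Both hairpin values of SEMA7A lay between the control values, and the log2 difference was 0.17 (SE 0.39), turning to -0.28 without shNC replicate 2. The ratio of SEMA3C to SEMA3A within a library, which no scaling affects, was 7.27 and 12.0 in shNC and 6.38 and 10.96 in shPTPRN3.

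NRP1 had the highest level of the 10 genes in every library, and neither neuropilin differed between groups beyond the spread of the controls. NRP1 (chromosome 10, 33177491 to 33334905), the co-receptor of SEMA3A that also binds VEGF, stood at 29.5 and 60.2 FPKM in shNC and at 46.0 and 45.5 FPKM in shPTPRN3. The hairpin libraries nearly coincided, at a level between the controls, and the scaled means were 45.1 ± 23.6 and 46.0 ± 3.21 FPKM (SD, n = 2). NRP2 (chromosome 2, 205682500 to 205798131), the neuropilin that prefers other class 3 semaphorins, stood at 13.4 and 28.9 FPKM in shNC and at 14.4 and 12.2 FPKM in shPTPRN3. It was the only 1 of the 10 with a negative difference (-0.53 on the log2 scale, SE 0.43), and that difference rested on shNC replicate 2, without which it was 0.04. For NRP1 the log2 difference of 0.13 (SE 0.44) became -0.42 without shNC replicate 1 and 0.67 without shNC replicate 2. As a ratio within each library, NRP1 to NRP2 was 2.2 and 2.08 in shNC and 3.18 and 3.74 in shPTPRN3. The 2 control ratios were close although both genes more than doubled from one control library to the other, and the ratios of the groups did not overlap. This ratio was looked at after the values had been seen, and 2 libraries against 2 cannot give an exact permutation p below 0.333.

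PLXNA1 (chromosome 3, 126988594 to 127037392), an A-type plexin that forms the signalling subunit of the semaphorin receptor, was higher in both hairpin libraries, with 7.06 and 8.65 FPKM in shNC and 15.6 and 10.3 FPKM in shPTPRN3. Its log2 difference was 0.65 (SE 0.33), with 1.02 between the replicate 1 libraries and 0.27 between the replicate 2 libraries.

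The Slit ligand was higher with the hairpin and its receptor was not separated. SLIT2 (chromosome 4, 20251905 to 20620561) stood at 0.259 and 0.263 FPKM in shNC and at 0.966 and 0.974 FPKM in shPTPRN3. Replicates of SLIT2 agreed within their deposited intervals in each group, and the groups' intervals lay apart (0.170 to 0.356 against 0.792 to 1.15 FPKM over the libraries). The ratio of scaled means was 3.75, 3.68 for replicate 1 and 3.82 for replicate 2, and the log2 difference was 0.65 (SE 0.27) on the scale that compresses such low values. An intronic transcript, SLIT2-IT1, and the microRNA gene MIR218-1, which lie inside the locus, were listed at 0 in all 4 libraries. ROBO1 (chromosome 3, 78597238 to 79767998), a receptor of SLIT2, stood at 3.29 and 6.84 FPKM in shNC and at 9.13 and 4.01 FPKM in shPTPRN3. It was the only member whose hairpin libraries also differed by more than 2-fold, its log2 difference was 1.21 for replicate 1 and -0.61 for replicate 2, and the difference over all 4 was 0.30 (SE 0.46). LOC101927374, which lies within ROBO1, stood at 0.0187 and 0.0593 FPKM in shNC and was listed at 0 in shPTPRN3. Within a library, SLIT2 reached 0.0787 and 0.0385 of the ROBO1 level in shNC and 0.106 and 0.243 in shPTPRN3.

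**Figure D2:**
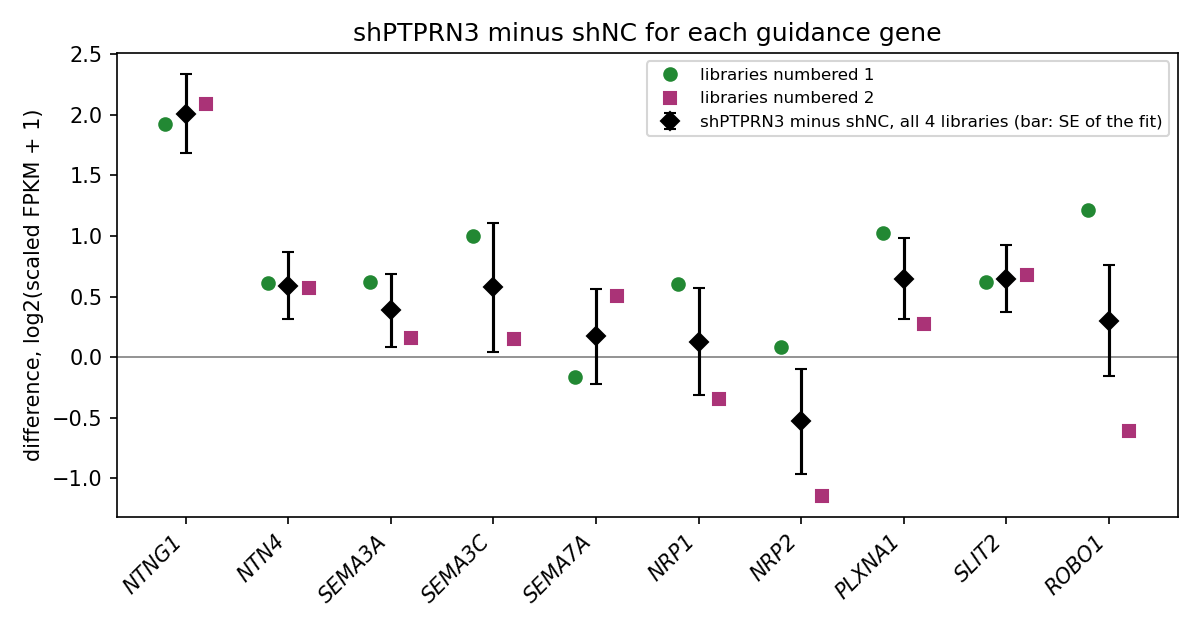
Difference between shPTPRN3 and shNC on the scale of log2(scaled FPKM + 1) for each gene: black diamonds use all 4 libraries with the SE of the fit, green circles only the replicate 1 libraries and purple squares only the replicate 2 libraries. NTNG1 stands near 2 in both, NTN4 and SLIT2 near 0.6 in both, and SEMA7A, NRP1, NRP2 and ROBO1 change sign between the numbers.

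Counted over the 10 genes, 5 were higher in shPTPRN3 without overlap of the groups (NTNG1, NTN4, SEMA3A, PLXNA1 and SLIT2) and 0 were lower, where over all genes tested 21.5% were higher and 23.1% lower without overlap (44.6% in either direction). Of the members 9 had a log2 difference above 0, as did 49.5% of all genes tested, and the median was 0.48 for the members and -0.01 for all genes tested. The fit was limma's moderated test with Benjamini-Hochberg adjustment over 11392 genes; 0 of the 10 members had an adjusted p under 0.05, as did 0.421% of all genes (0.079% higher and 0.342% lower). Because the list was drawn up with this contrast known, nothing is read from these counts. On the mean filter of 1 scaled FPKM, 8 of the 10 genes passed; NTN4 and SLIT2 did not and were kept in the fit by name.

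In order of their mean scaled FPKM over the 4 libraries, NRP1 (45.5) came first, followed by NRP2 (17.3), SEMA7A (11.6), PLXNA1 (10.4), SEMA3C (9.58), NTNG1 (7.93), ROBO1 (5.78), SEMA3A (1.03), SLIT2 (0.618) and NTN4 (0.495). The ranges of neighbours in this order overlapped, with a single gap, between ROBO1 (lowest 3.17) and SEMA3A (highest 1.32). NTNG1 moved within the order: per transcript length it was below ROBO1 in both controls (0.692 and 0.410 of the ROBO1 level) and above it in both hairpin libraries (1.28 and 3.64). The order pools groups: in the shPTPRN3 means NTNG1 (13.3) stood level with NRP2 (13.3) and above PLXNA1 (12.9), SEMA7A (12.1) and SEMA3C (11.1), and the place of NRP2 rested on shNC replicate 2.

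The control libraries themselves differed for many of these genes. On scaled FPKM, 5 of the 10 were more than 2-fold higher in shNC replicate 2 than in shNC replicate 1. These were SEMA3A, SEMA3C, NRP1, NRP2 and ROBO1. Of 11225 genes, 18.6% differed by that much in either direction. SEMA3A passed narrowly, with a ratio of 2.03, and did not pass on deposited FPKM (0.527 and 1.01). SEMA7A, with a ratio of 0.502, fell just short in the other direction. The deposited intervals of the 2 controls lay apart for 7 of the 10, and those of the 2 shPTPRN3 libraries for 6 of the 10. Over all genes tested, the difference between the controls moved with transcript length: the median of shNC replicate 2 minus replicate 1 was -0.63 on the log2 scale for genes whose longest coding transcript was under 2000 bases and 0.61 for those of 6000 bases or more. The members' transcripts were 3376 (SEMA7A) to 9066 bases (PLXNA1) long. SEMA3C (1.51), NRP2 (1.14), NRP1 (1.09) and ROBO1 (0.94) lay above the median of their length class, NTNG1 (0.28 against 0.31) beside it, NTN4 (-0.12 against -0.09) likewise, and SEMA7A (-0.91 against -0.09), SEMA3A (0.43 against 0.61), PLXNA1 (0.34) and SLIT2 (0.02) below it. Between groups, the same length classes differed by 0.28 for transcripts of 6000 bases or more between the replicate 1 libraries and by -0.03 between the replicate 2 libraries. The part of transcript length in the values of SEMA3A, SEMA3C, NRP1, NRP2, PLXNA1 and ROBO1, whose differences were higher for replicate 1, was not tested.

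**Figure D3:**
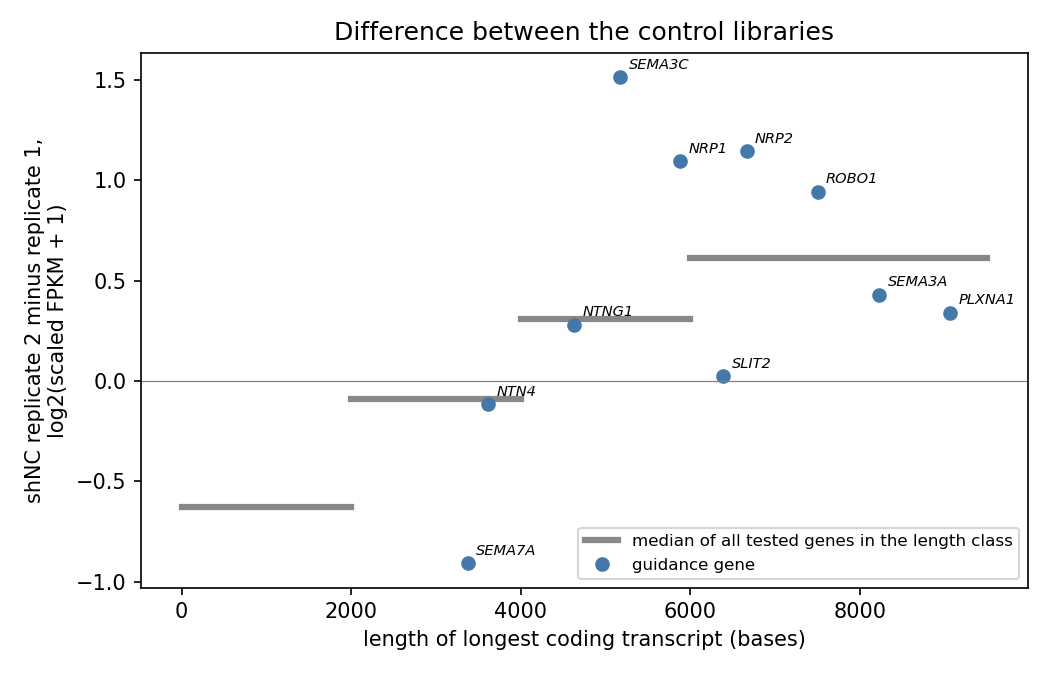
Difference between the 2 shNC libraries (replicate 2 minus replicate 1, log2(scaled FPKM + 1)) against the length of the longest coding transcript; blue points are the 10 guidance genes and grey bars the medians of all tested genes in 4 length classes. The grey medians climb from -0.63 to 0.61 with length, and SEMA3C, NRP1, NRP2 and ROBO1 lie above them.

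The rest of the guidance system was read from 6 lists with 112 genes that are not among the 10, of which 57 were tested. By limma, 0 of the 57 passed an adjusted p of 0.05 in either direction; at an unadjusted p under 0.05, 10 were higher and 2 lower in shPTPRN3, where over all genes tested 5.66% were higher and 7.78% lower (13.4% in either direction). Of the 57, 5 had a shNC mean under 1 FPKM and reached the filter of the test only through their shPTPRN3 level. These were ABLIM1, EFNA3, EPHA4, EPHA5 and SEMA6B, and 0 genes entered only through shNC. Of the 10 higher genes, 3 (SEMA6B, ABLIM1 and EPHA4) were among them. Their differences are therefore given without a p, and the count supports nothing. The median log2 difference over the 57 was 0.19, against -0.01 over all genes tested. For the groups, 22 of the 57 were higher and 7 lower without overlap. Over all genes tested, 21.5% were higher and 23.1% lower without overlap. The 5 genes are among the 22 and enter the medians of the 57 and of their lists, so nothing is read from these values.

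Of the 14 netrin ligands and receptors, only NEO1, the receptor neogenin, reached a mean of 1 FPKM. NEO1 stood at 1.84 and 3.24 FPKM in shNC and 4.07 and 3.89 in shPTPRN3 (log2 difference 0.53, limma adjusted p = 0.536). LRRC4C, which encodes the binding partner of netrin-G1, was listed at 0 in both controls and in shPTPRN3 replicate 1, with 0.0207 FPKM in shPTPRN3 replicate 2, and the classical receptor gene DCC was also listed at 0 in both controls, with 0.0278 and 0.0237 FPKM in shPTPRN3. LRRC4, the relative of LRRC4C that binds netrin-G2, was at 0.163 and 0.396 FPKM in shNC and 0.863 and 1.59 in shPTPRN3 and was too low for the test.

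Of the 17 other semaphorins, 6 were tested, with a median log2 difference of 0.41. SEMA4B, a membrane-bound semaphorin, was the most abundant, at 14.8 and 12.9 FPKM in shNC and 22.5 and 18.4 in shPTPRN3. SEMA3B, a secreted class 3 member, had a log2 difference of 0.28. SEMA6B, a transmembrane ligand of A-type plexins, averaged 0.559 ± 0.00736 in the controls against 2.47 ± 1.18 scaled FPKM with the hairpin (SD, n = 2; log2 difference 1.11, SE 0.34), and SEMA4F had a log2 difference of 0.60.

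Of the 20 other plexins, co-receptors and VEGF genes, 10 were tested, with a median of 0.41. PLXND1, the plexin of endothelial guidance, went from 1.31 ± 0.433 to 4.40 ± 1.30 scaled FPKM (log2 difference 1.21, SE 0.33, limma adjusted p = 0.186), and PLXNB3, a receptor of SEMA5A, had a log2 difference of 0.91 (adjusted p = 0.305). ITGB1, the integrin beta-1 chain that serves SEMA7A, had 61.7 and 103 FPKM in shNC and 163 and 102 in shPTPRN3, and VEGFB, which encodes a growth factor of the VEGF family, had a log2 difference of -0.11.

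Of the 11 other Slit and Robo genes, 6 were tested. SLIT3, a paralogue of SLIT2, stood at 1.17 and 1.93 FPKM in shNC and 4.68 and 3.67 in shPTPRN3 (log2 difference 1.04, SE 0.32, limma adjusted p = 0.224). Values of the cell-surface heparan sulphate carriers lay on opposite sides of 0: GPC1, glypican-1, had a log2 difference of 0.95 (adjusted p = 0.294), while SDC1, syndecan-1, was at 65.8 and 56.2 FPKM in shNC and 31.8 and 12.3 in shPTPRN3 (-1.55, SE 0.45, adjusted p = 0.200).

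Of 28 intracellular effectors, 24 were tested, with a median of 0.16. ABLIM1, an actin-binding adaptor, stood at 0.702 and 0.928 FPKM in shNC and 2.36 and 3.54 in shPTPRN3 (log2 difference 1.12, SE 0.33). The abundant actin regulators CFL1, cofilin, and RHOA had log2 differences of -0.31 and 0.07, and that of RHOA was -0.026 with quantile normalization.

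Of the 22 ephrins and Eph receptors, the guidance family that acts by cell contact, 10 were tested, with a median of 0.06. EPHA4 stood at 0.534 and 0.394 FPKM in shNC and 2.09 and 3.36 in shPTPRN3 (log2 difference 1.34, SE 0.33). EFNB2, the ligand ephrin-B2, had a log2 difference of 0.91 (adjusted p = 0.306), and EPHA2, the most abundant receptor of the family here at 20.8 scaled FPKM on average, had -0.34.

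**Figure D4:**
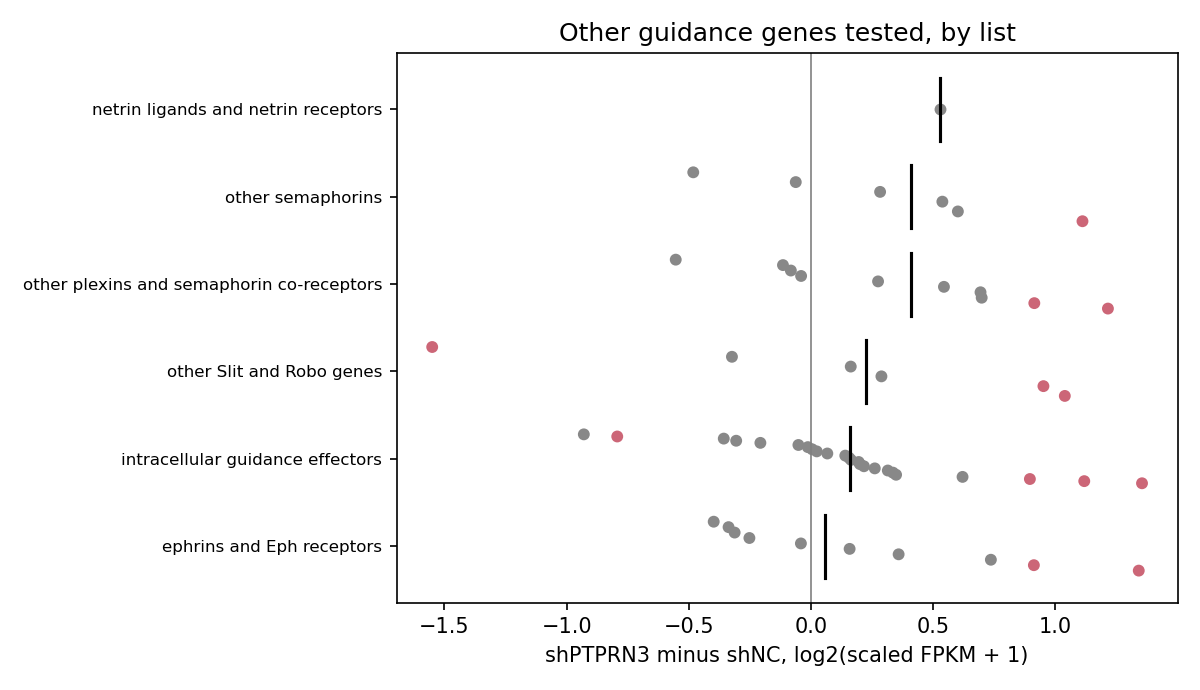
Difference between shPTPRN3 and shNC, log2(scaled FPKM + 1), for the 57 tested guidance genes outside the 10, by list; each point is a gene, red points have an unadjusted p under 0.05 by limma and the black line is the list's median. None of the points passed an adjusted p of 0.05. EPHA4 (1.34) is among the highest values and SDC1 (-1.55) is the lowest. EPHA4, SEMA6B and ABLIM1 are red although they reached the filter only through their shPTPRN3 level, so their p is not read. The medians include these genes.

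The genes whose profile over the 4 libraries was most like that of NTNG1, by Euclidean distance between centred log2(scaled FPKM + 1) values among 7188 genes never listed at 0 and averaging 5 FPKM or more, were TMEM255A (distance 0.163), PURPL (0.212), COL1A2 (0.239), CCDC80 (0.273) and DIRAS3 (0.333). TMEM255A encodes a transmembrane protein, PURPL a long non-coding RNA that p53 regulates, COL1A2 a chain of type I collagen, CCDC80 a secreted matrix-associated protein and DIRAS3 a small GTPase of the Ras family. Scaled FPKM of TMEM255A were 3.11 and 4.28 in shNC and 13.6 and 21.9 in shPTPRN3. With 4 libraries in 2 groups, such a likeness amounts to a similar difference between the groups.

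Some guidance genes below the filter of the test also had groups that did not overlap. Of the 112 other guidance genes, 20 had a mean of 0.1 to 1 scaled FPKM, and in 11 of them both shPTPRN3 libraries lay above both shNC libraries, with 2 (KDR and NTN3) the other way round. Over the 3430 symbols in that range the shares were 25.2% higher and 16.7% lower. Among the 11, RND1 and EPHA3 had shNC means under 0.1 scaled FPKM (0.047 and 0.0908). They entered the range only through their shPTPRN3 means (0.172 and 0.373), so nothing is read from these counts. PLXNA2, an A-type plexin, stood at 0.338 and 0.333 FPKM in shNC and 1.52 and 1.37 in shPTPRN3. PLXNB1, the receptor of SEMA4D, stood at 0.252 and 0.174 FPKM in shNC and 1.74 and 1.02 in shPTPRN3. SEMA3E, the ligand of plexin D1, stood at 0.132 and 0.192 FPKM in shNC and 0.715 and 0.586 in shPTPRN3. UNC5B, a repulsive netrin receptor, stood at 0.461 and 0.440 FPKM in shNC and 0.965 and 0.857 in shPTPRN3, and NTNG2, the paralogue of NTNG1, at 0.342 and 0.367 against 0.678 and 1.25 FPKM. Lower were KDR, at 0.374 and 0.442 against 0.222 and 0.126 FPKM, and NTN3, at 0.174 and 0.306 against 0.140 and 0.0897. Outside the 11 and the 2, the groups of the 20 overlapped. These genes were picked after their values had been seen and were not tested.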

How the data were processed

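RNA of U87 cells was sequenced after a stranded mRNA library preparation, per the labels' protocols, and 4 gene tables (shNC and shPTPRN3, 2 libraries each) were analysed. Per the submitters' processing notes, FastQC 0.72, STAR 2.6.0b-1, Cufflinks 2.2.1.2 and build hg38 were used; for the annotation and the strand setting, none is named by labels or headers. The authors deposited FPKM with a confidence interval and a status per gene, per the file headers. These values rest on an assumed transcript length, and without counts no count model was used.

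Rows not at status OK in every library (651) were left out and FPKM were summed per gene_id. Each of the 10 genes had 1 row. Libraries were scaled by a median ratio over 9988 genes (factors 1.04, 0.974, 1.05 and 0.943). Genes with a mean of at least 1 scaled FPKM, plus the 10 genes and PTPRN, were fitted with limma 3.58.1 (R 4.3.3) on log2(scaled FPKM + 1), eBayes with trend, two-sided, Benjamini-Hochberg at 0.05; the script was checked on simulated data. With 2 residual degrees of freedom and unknown independence of the cultures, p-values reflect only how these libraries vary, which may be technical. Positions are from the tables, counted from 1; GENCODE 29 (same build) gave transcripts.

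The members and lists were chosen with earlier results of these data known. Named genes were the 10 and PTPRN, per list the called genes, or the 2 with the largest difference if none was called, the 2 most abundant, and the 5 profiles nearest to NTNG1; LRRC4C, DCC and the genes of the last paragraph were named after their values were seen. Alternatives covered scaling, pseudocount (0.1, 0.5), filters, eBayes settings, row handling, genes listed at 0, the replicate block and leaving out each library. A result for 1 gene that this rule names is not reported here.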

Additional observations from a re-analysis of the deposited data

How the results depend on the processing

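Across 16 alternatives, the differences of NTNG1 (1.79 to 2.34), NTN4 (0.51 to 1.62), SEMA3A (0.17 to 0.74), PLXNA1 (0.44 to 0.85) and SLIT2 (0.61 to 1.58) kept their sign; the largest values of all but PLXNA1 came with a pseudocount of 0.1. Leaving out 1 library turned the sign of the other 5: SEMA3C ranged from -0.18 to 1.33, SEMA7A from -0.28 to 0.62, NRP1 from -0.42 to 0.67, NRP2 from -1.10 to 0.04 and ROBO1 from -0.17 to 0.77 (-0.14 without shPTPRN3 replicate 1). Of the other guidance genes, only the tested ones picked by the naming rule were followed across the alternatives. Among these the sign of CFL1 (-0.73 to 0.12), EPHA2 (-0.71 to 0.032) and VEGFB (-0.55 to 0.32) turned in the same way, and RHOA was -0.026 with quantile normalization.

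The number of genes called by limma over all genes was 48 (9 higher, 39 lower). It was 31 (23 lower) on FPKM as deposited, 23 (16 lower) with a pseudocount of 0.1, 0 with no filter (0 higher, 0 lower, 2163 at an unadjusted p under 0.05), 10 (3 higher, 7 lower) at a mean of at least 5 FPKM, 26 (19 lower) with eBayes without trend, 160 (33 higher, 127 lower) with robust eBayes and 215 (42 higher, 173 lower) without genes listed at 0. Leaving out each library gave 39 to 179 (5 to 35 higher, 21 to 144 lower), the most without shPTPRN3 replicate 1. The count over the 10 genes was 0, and 1 with robust eBayes, without genes listed at 0 and with the block; it includes the gene the list was selected on and is no test. The causes were not tested.

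With the replicate number as a block, 2155 genes were called (951 higher, 1204 lower), 13 of the other guidance genes and 1 of the 10. The labels do not say that a number marks a shared batch; deviations of same-numbered libraries correlated across 11392 genes, which are not independent, with r = 0.519. With 2 libraries a group that is too few pairs to take the number for more than a name. Depth limits NTN4 most, with about 4.4 to 125 fragments implied per library, and SLIT2, with 32.1 to 290.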
